A study of Mus musculus with 32 samples.

Results

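Activin-A was compared with IFN-γ at 12 hrs in YUMM3.3 cells, head to head, over the 8 of the 32 wells of the series that the labels assign to either factor alone at that time, 4 wells a factor. YUMM3.3 is an established Braf mutant mouse melanoma line grown as a culture of tumor cells without a stroma. Transcripts were counted by BRB-seq, a bulk method in which the RNA of each well receives its own barcode and only one end of each transcript is read. All 32 wells held the same unmodified line in the same medium, as 8 groups of 4 that were left untreated (NT in the labels) or received Activin-A (40 ng/ml), IFN-γ (20 ng/ml) or both factors, for 4 or 12 hrs. These doses are those of the labels and of the study's methods, although a figure legend of the study gives another dose of Activin-A. Each factor was given at 1 dose, and the groups used below are Activin-A, IFN-γ, untreated and both factors at 12 hrs, with their counterparts at 4 hrs. Nothing in the labels says that the 4 wells of a group came from separate experiments, and p-values therefore measure the spread between wells of 1 line, which may be technical.

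Activin-A is a TGF-β family ligand, a dimer of the chain encoded by Inhba. It binds type II activin receptors that recruit the type I receptor ALK4 (Acvr1b), whereupon Smad2 and Smad3 are phosphorylated and enter the nucleus with Smad4, and the family is best known for inducing extracellular matrix, contractile and feedback genes. IFN-γ, secreted by activated T and NK cells, binds Ifngr1 and Ifngr2, and the kinases Jak1 and Jak2 act through STAT transcription factors to induce antigen presentation, GTPases of cell-autonomous defense and chemokines, partly through the transcription factor Irf1.

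Between 803370 and 1285540 counts were obtained per well in the 12 single-factor and untreated wells at 12 hrs, and the 2 factors overlapped in depth (803370 to 1249145 with Activin-A, 860807 to 1241095 with IFN-γ). Mitochondrial transcripts took 1.308% to 1.415% of the counts with Activin-A and 1.08% to 1.395% with IFN-γ. Melanocyte lineage markers were present, 9 of 10 being in the table, with a summed level of 463 to 550 CPM (the count scaled to a common library size with TMM factors) with Activin-A, 493 to 524 CPM with IFN-γ and 437 to 497 CPM without treatment. Of 10 immune cell markers 5 were in the table, at a summed 7.77 to 18.6 CPM with Activin-A and 14.2 to 20.6 CPM with IFN-γ, and none passed the filter on low counts. None of 5 endothelial markers was in the table, 1 of 5 keratinocyte markers was, and 3 of 6 fibroblast and pericyte markers summed to 18.5 to 30 CPM against 13.4 to 25.0 CPM. Among the 4 hrs wells used further on, replicate 1 of Activin-A had the highest total of the series (1455074 counts) and 2.143% of mitochondrial counts against at most 1.538% in any other well. As in any bulk measurement, fewer cells that express a gene and less of its RNA per cell cannot be told apart.

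At 12 hrs, 1103 of 8971 genes tested (12.3%) differed between Activin-A and IFN-γ at an adjusted p under 0.05 (quasi-likelihood test of edgeR, adjusted by Benjamini-Hochberg). Of these DEGs, 415 (4.63% of the genes tested) were higher with Activin-A and 688 (7.67%) were higher with IFN-γ. The IFN-γ side also held the wider differences, since 253 of its DEGs and 53 of those of Activin-A differed at least 2-fold. The median log2 fold change (log2FC) over all genes tested was 0.0048, where a positive log2FC denotes more transcript with Activin-A than with IFN-γ throughout this comparison. For 1342 genes (15% of those tested) the 4 wells of one factor lay all above the 4 of the other.

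The 12 widest differences among genes with non-overlapping wells and a mean of at least 10 counts were all higher with IFN-γ, and most were known interferon-induced genes. Gbp2, a guanylate-binding protein that attacks vacuoles of pathogens, was at 61.0, 71.9, 62.0 and 64.6 CPM in the Activin-A wells and at 4790, 4820, 4730 and 4990 CPM in the IFN-γ wells, against 41.9 to 66.1 CPM in untreated wells. The IFN-γ wells stood far above all others for this gene, and Activin-A wells overlapped with untreated ones (log2FC -6.22 ± 0.07 (SE, n = 4 wells a factor)). Iigp1, an immunity-related GTPase, was at 4.14 to 10.4 CPM with Activin-A and 579 to 616 CPM with IFN-γ (log2FC -6.27 ± 0.13). The surface protein gene Ly6c1 was at 0.803 to 4.14 CPM against 183 to 214 CPM, Il18bp, the secreted decoy that binds IL-18, at 1.03 to 5.83 CPM against 189 to 214 CPM, and Zbp1, a sensor of left-handed nucleic acids, at 1.24 to 7.23 CPM against 215 to 274 CPM. Gbp3 was at 8.84 to 18.5 CPM against 723 to 742 CPM and Psmb9, a catalytic subunit of the immunoproteasome, at 3.89 to 11.2 CPM against 349 to 396 CPM. For some genes the Activin-A wells together held only 1 to 4 counts, so their size is given as a ratio with an exact 95% interval that covers counting error only. The apolipoprotein L gene Apol6 had 2 counts against 311 (ratio 161, 44.3 to 1340), Gbp6 had 1 against 179 (ratio 186, 32.9 to 7380), the GTPases Tgtp1 and Tgtp2 had 2 against 153 (ratio 79.4, 21.6 to 661) and 4 against 197 (ratio 51.1, 19.6 to 189), and the class I gene H2-Q4 had 2 against 115 (ratio 59.7, 16.1 to 499). Ly6c1, Il18bp, Zbp1, Apol6, Gbp6, Tgtp1, Tgtp2 and H2-Q4 reached the mean of 10 counts only through the IFN-γ wells. These genes had to differ, and their place among the widest differences is a description. Gbp, immunity-related GTPase, H2, Ifit and Oas genes have close relatives, and how reads shared between them were assigned is not given in the sources used here, so that values of single family members are uncertain.

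On the side of Activin-A the differences were smaller. Pmepa1, which encodes a membrane protein that captures Smads and so limits their signaling, was at 182, 103, 107 and 168 CPM with Activin-A and at 31.6, 29.3, 29.3 and 34.2 CPM with IFN-γ. All Activin-A wells were above all others, while IFN-γ wells overlapped with the 30.3 to 47.4 CPM of untreated ones (log2FC 2.16 ± 0.16 head to head). Ccn2, the matricellular connective tissue growth factor, was at 453 to 558 CPM with Activin-A, 131 to 150 CPM with IFN-γ and 126 to 151 CPM untreated (log2FC 1.78 ± 0.08). Pdgfb, a growth factor for mesenchymal cells, was at 12.6 to 37.3 CPM against 3.64 to 8.34 CPM, and the protease Prss23 at 52.7 to 80.8 CPM against 12.6 to 21.7 CPM. The desmosomal plakophilin Pkp1 had the highest log2FC among genes chosen by the same rule (2.24 ± 0.38), at 16.1 to 24.8 CPM with Activin-A and 1.08 to 8.37 CPM with IFN-γ. Sertad4 differed from these, because its head-to-head log2FC of 1.72 ± 0.25 went with a fall under IFN-γ (log2FC -1.27, adjusted p = 0.000125 against untreated) and a log2FC of 0.45 with Activin-A that did not pass the test (adjusted p = 0.331).

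Over all genes tested, 7.67% were higher with IFN-γ and 4.63% with Activin-A. In the pathway of IFN-γ itself, 6 of 11 receptor, JAK and STAT genes tested were higher with IFN-γ and 1 was higher with Activin-A. Stat2, a part of the type I interferon complex, was at 16.1, 18.5, 22.8 and 22.4 CPM with Activin-A, 16.5 to 29.7 CPM untreated and 83.8, 118, 92.1 and 108 CPM with IFN-γ. Activin-A wells overlapped with untreated ones and IFN-γ wells lay above both. Stat2 had a log2FC of -2.37 ± 0.16 (adjusted p = 5.13e-24) and Stat3, a transducer of IL-6 family cytokines, one of -2.01 ± 0.12. The receptor chain Ifngr2 was the member higher with Activin-A, at 89.4 to 143 CPM against 85.9 to 102 CPM, with overlapping wells and a log2FC of 0.35 ± 0.12 (adjusted p = 0.0309). The kinases Jak2 and Tyk2 and the receptor chain Ifnar2 were higher with IFN-γ (log2FC -0.55, -0.68 and -0.68), and Ifngr1 was not called (0.16, adjusted p = 0.636). Among the interferon regulatory factors 4 of 8 were higher with IFN-γ, namely Irf1 (43.4 to 47.2 CPM against 681 to 738 CPM), Irf2, Irf7 and Irf9 (log2FC -3.95, -1.22, -2.91 and -2.13), and none with Activin-A. Suppressors of cytokine signaling were divided. Socs1, the inhibitor of JAKs, and Socs3 were higher with IFN-γ (log2FC -2.31 and -1.69), as was Cish (-1.18), whereas Socs2 was at 18.5 to 35.2 CPM with Activin-A and 6.50 to 11.5 CPM with IFN-γ (log2FC 1.35, adjusted p = 8.04e-05). The remaining 9 of 13 members of that list were not called.

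The list counts of this paragraph stand against 7.67% of all genes tested that were higher with IFN-γ and 4.63% with Activin-A. Of the effectors of IFN-γ, the 6 immunoproteasome genes of the list were tested and called higher with IFN-γ (median log2FC -3.42). The same call was made for the 5 guanylate-binding proteins, 8 immunity-related GTPases and 24 antiviral effectors that passed the filter on low counts, of 11, 10 and 27 on the lists. Genes such as Gbp6, Tgtp1 and Tgtp2 passed that filter only through wells given IFN-γ and so had to differ, and the counts of these 3 lists are a description. Gbp2b, Gbp5, Gbp8 and Gbp9, the GTPase gene F830016B08Rik, and Oas1g, Mx1 and Mx2 were in the table below the filter, and 3 further members were absent from it. Among the other lists of this paragraph are members with few counts in the Activin-A wells too, such as H2-Q4 and Casp4. The counts and medians of these lists are likewise a description. In antigen presentation by MHC class I, 13 of 16 genes were higher with IFN-γ and none with Activin-A (median log2FC -2.88). They included the peptide transporter Tap1 (12.9 to 26.9 CPM against 382 to 402 CPM), the editor of loaded peptides Tapbpl and the nonclassical gene H2-T23 (log2FC -4.43, -3.72 and -4.51). None of the 4 MHC class II genes tested was called. Sensors of nucleic acids were higher with IFN-γ in 10 of 13 cases, with Ifi203 at 7.77 to 11.2 CPM against 95.1 to 129 CPM (log2FC -3.53), and 7 of 8 interferon-induced PARPs and partners were higher as well. As a description, cell death effectors were higher with IFN-γ in 10 of 16 cases, among them the inflammatory caspase Casp4 (3.73 to 5.17 CPM against 19.2 to 38.7 CPM) and Mlkl, the executor of necroptosis (33.7 to 49.7 CPM against 117 to 144 CPM). The antiapoptotic Bcl2, named here after its value was seen, was the 1 member of that list higher with Activin-A (log2FC 0.68). The T cell inhibitory ligand Cd274 (PD-L1) was at 1.03 to 5.83 CPM with Activin-A and 75.3 to 97.6 CPM with IFN-γ (log2FC -4.62 ± 0.25).

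Among chemokines 4 of 7 tested were higher with IFN-γ and 1 with Activin-A, against 7.67% and 4.63% of all genes tested. The T cell attractants Cxcl9 and Ccl5, named after their values were seen, were not called (log2FC 0.03 and -0.13, adjusted p = 0.961 and 0.695). Cxcl10, which attracts activated T cells, was at 36.1, 29.1, 34.1 and 49.7 CPM with Activin-A, 31.1, 39.5, 26.4 and 38.8 CPM untreated and 222, 318, 188 and 229 CPM with IFN-γ. Activin-A wells overlapped with untreated wells and IFN-γ wells lay above both (log2FC -2.70 ± 0.13). The membrane-bound chemokine Cx3cl1 was at 13.4 to 33.5 CPM against 121 to 142 CPM, and the monocyte attractant Ccl7 had 9 counts with Activin-A against 90 with IFN-γ (ratio 10.4, 5.23 to 23.4). Cytokines and their decoys were higher with IFN-γ in 7 of 8 cases, including Il15, which sustains NK and memory T cells (1.61 to 5.17 CPM against 21.7 to 28.2 CPM), and Kitl, the ligand of the receptor Kit (19.4 to 32.1 CPM against 34.7 to 59.6 CPM). Ccl7, Il15 and Il18bp held few counts in the Activin-A wells, and the counts of both lists are a description. Serping1, the inhibitor of complement C1, was at 11.2 to 20.1 CPM against 208 to 227 CPM.

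Lgals3, which encodes the secreted lectin galectin-3, reached its head-to-head difference from the other side. It was at 1050, 1040, 977 and 1040 CPM with Activin-A, 1410, 1280, 1460 and 1610 CPM untreated and 1560, 1510, 1470 and 1550 CPM with IFN-γ. All Activin-A wells were below all untreated wells, with which the IFN-γ wells overlapped. Lgals3 thus fell with Activin-A (log2FC -0.48, adjusted p = 1.31e-11), had a log2FC of 0.08 with IFN-γ (adjusted p = 0.424), and was called head to head at a log2FC of -0.56 ± 0.05. Integrin β7 (Itgb7) and Id3, an inhibitor of bHLH factors, had the same form, with log2FC of -0.58 and -0.33 with Activin-A (adjusted p = 0.000127 and 0.00581) and of 0.25 and 0.11 with IFN-γ (adjusted p = 0.119 and 0.519).

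**Figure D1:**
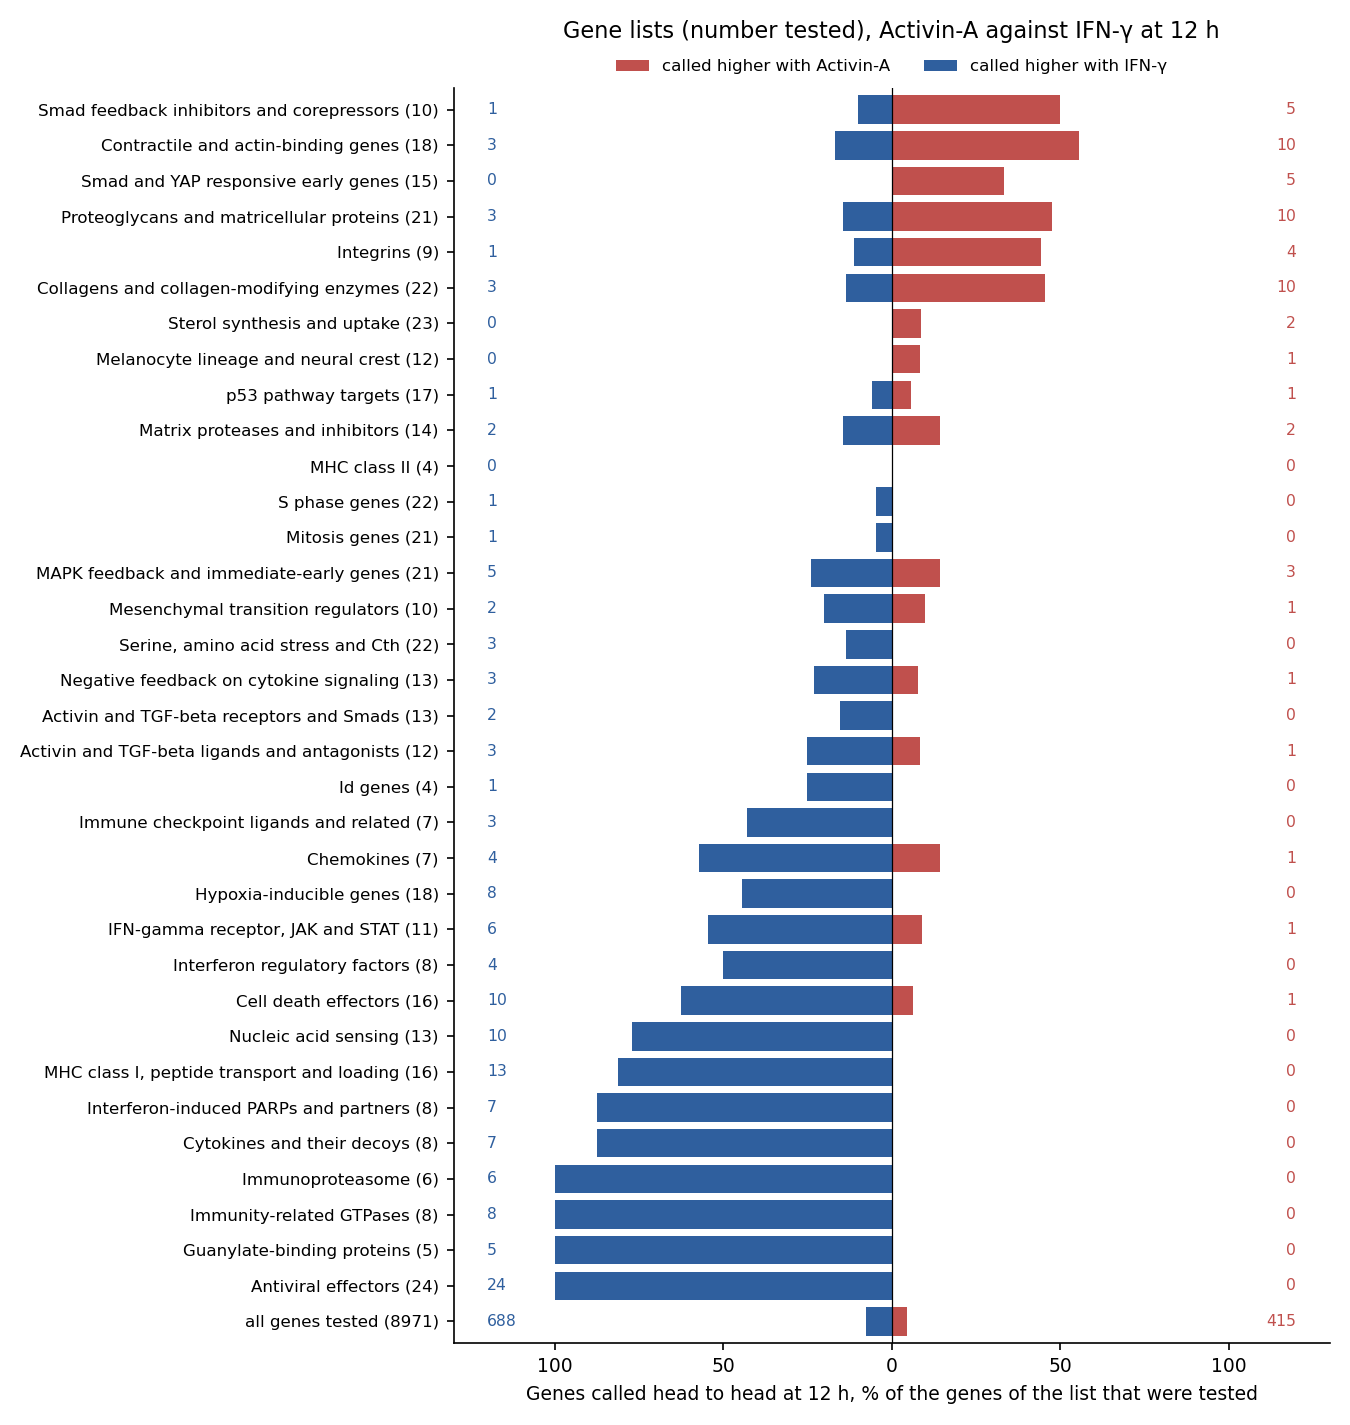
Share of the tested genes of each list that was called head to head at 12 hrs, to the right higher with Activin-A and to the left higher with IFN-γ, with the number of genes at the edges and the number tested in parentheses. Antiviral effectors, guanylate-binding proteins, immunity-related GTPases and the immunoproteasome reach 100% of their tested genes on the IFN-γ side, some of which passed the filter only through wells with IFN-γ, and the lists of collagens, contractile genes and proteoglycans hold 10 genes each on the Activin-A side.

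In the pathway of Activin-A, receptors and Smads were called in 2 of 13 cases, a share near the 12.3% of all genes, both higher with IFN-γ, and these were the coreceptors Tgfbr3 (7.23 to 14.5 CPM against 16.7 to 30.4 CPM, adjusted p = 0.00874) and Eng (46.0 to 60.2 CPM against 53.4 to 82.7 CPM, adjusted p = 0.0309). The 11 others, Smad2, Smad3, Smad4 and Acvr1b among them, had log2FC from -0.31 to 0.41 and were not called. Against 4.63% of all genes tested, 5 of 10 feedback inhibitors and corepressors were higher with Activin-A. Besides Pmepa1 these included Smad7, which blocks the type I receptors, at 40.2, 37.9, 41.4 and 34.8 CPM with Activin-A against 25.5, 22, 17.3 and 16.7 CPM with IFN-γ (log2FC 0.95 ± 0.20), and the corepressors Skil and Ski (log2FC 1.33 ± 0.29 and 0.60 ± 0.11). The ubiquitin ligase Smurf1, named after its value was seen, was the 1 member higher with IFN-γ (log2FC -0.48). Against untreated cells the changes of Smad7, Skil and Ski were not called for either factor, the log2FC being 0.61, 0.78 and 0.32 with Activin-A (adjusted p = 0.0547, 0.0988 and 0.0829) and -0.33, -0.55 and -0.28 with IFN-γ (adjusted p = 0.454, 0.379 and 0.133).

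Ligands and antagonists of the activin pathway differed between the factors at 4 of 12 genes, against 12.3% of all genes tested. Inhba, the chain of Activin-A itself, was at 91.6, 91.3, 88.9 and 88.2 CPM with Activin-A and at 58.3, 77.4, 59.6 and 50.9 CPM with IFN-γ, the latter spanning the 53 to 69.4 CPM of untreated wells (log2FC 0.56 ± 0.13, adjusted p = 0.000493). Inhbb, the chain of activin B, was at 3.21 to 6.21 CPM with Activin-A and 14.1 to 37.6 CPM with IFN-γ (log2FC -2.40 ± 0.36, adjusted p = 5.80e-08). Fstl1, a secreted follistatin-like glycoprotein, rose with both factors, by a log2FC of 0.55 with Activin-A and 0.95 with IFN-γ. The fourth gene was Fst, encoding follistatin, which binds activins and keeps them from their receptors, and it moved in opposite directions with the 2 factors, as described with the opposed genes.

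Lists of matrix and cytoskeleton genes had more members higher with Activin-A than with IFN-γ. Among collagens and collagen-modifying enzymes 10 of 22 were higher with Activin-A and 3 with IFN-γ, among proteoglycans and matricellular proteins 10 of 21 and 3, among contractile and actin-binding genes 10 of 18 and 3, and among integrins 4 of 9 and 1, with list medians of 0.46, 0.23, 0.20 and 0.19 log2FC. The shares of all genes tested were 4.63% and 7.67%. Against untreated cells, 4 members of the collagen list rose and 0 fell with Activin-A, and 2 rose and 9 fell with IFN-γ. Some differences came with a called rise under Activin-A and no called change under IFN-γ. Thbs1, a matricellular activator of latent TGF-β, was at 1180, 1100, 1210 and 1370 CPM with Activin-A, 652, 624, 622 and 657 CPM with IFN-γ and 540 to 607 CPM untreated, so that Activin-A wells stood above the rest and IFN-γ wells slightly above untreated ones. The log2FC was 1.07 with Activin-A (adjusted p = 2.60e-30) and 0.15 with IFN-γ (adjusted p = 0.136). The proteoglycan biglycan (Bgn) and integrin β1 (Itgb1) shared this form, with log2FC of 0.70 and 0.44 for Activin-A and of 0.0048 and -0.01 for IFN-γ. Integrin β5 (Itgb5) was at 122, 136, 152 and 166 CPM with Activin-A, 63.8 to 79.0 CPM untreated and 41.3 to 60.7 CPM with IFN-γ, with log2FC of 1.04 and -0.31 of which the latter was not called (adjusted p = 0.204). Others came with a called fall under IFN-γ and no called change under Activin-A. Col3a1, a fibrillar collagen, was at 237, 249, 269 and 288 CPM with Activin-A, 219, 196, 231 and 245 CPM untreated and 95.9, 126, 114 and 139 CPM with IFN-γ (log2FC -0.88 for IFN-γ, adjusted p = 6.69e-14, and 0.22 for Activin-A, adjusted p = 0.139), and the microfibrillar collagen Col6a2 likewise fell with IFN-γ (log2FC -1.25, adjusted p = 3.02e-10) at a log2FC of -0.31 with Activin-A (adjusted p = 0.331). A further set did both, and is described with the opposed genes.

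The counts by direction in this paragraph stand against 4.63% of all genes tested that were higher with Activin-A and 7.67% with IFN-γ. Among the remaining lists, 5 of 15 early genes responsive to Smads or YAP were higher with Activin-A and none with IFN-γ, including Ccn2, Thbs1 and Ankrd1, a nuclear ankyrin repeat protein gene (18.6 to 28.1 CPM against 3.64 to 11.5 CPM). Mesenchymal transition regulators were called in 3 of 10 cases, Prrx1 and Twist1 being higher with IFN-γ (log2FC -0.98 and -0.56) and the adhesion molecule gene Ncam1 with Activin-A (1.00). Of 18 hypoxia-inducible genes 8 were higher with IFN-γ, such as the hexokinase Hk2 (26.5 to 38.3 CPM against 65.6 to 71.8 CPM) and the mitophagy receptor Bnip3 (107 to 130 CPM against 201 to 253 CPM). Immune checkpoint ligands and related genes were higher with IFN-γ in 3 of 7 cases, complement genes in 1 of 2 and Id genes in 1 of 4, and 0 members of these lists were higher with Activin-A. Cd274 of the checkpoint list held few counts in the Activin-A wells, so that the count of that list is a description. Against the 12.3% called over all genes, the calls numbered 1 of 12 melanocyte lineage genes (Sox9, log2FC 0.30), 1 of 22 S phase genes (Mcm3, -0.41), 1 of 21 mitosis genes (Top2a, -0.39), 2 of 23 sterol synthesis genes, 2 of 17 p53 targets (Gadd45a at 0.69 and Cdkn1a at -0.40) and 3 of 22 amino acid stress genes. Matrix proteases and inhibitors had 2 genes called each way of 14, and MAPK feedback and immediate-early genes 3 higher with Activin-A and 5 with IFN-γ of 21.

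Genes were then sought that the 2 factors moved in opposite directions from untreated cells. Against the 4 untreated wells at 12 hrs, Activin-A raised 112 genes (1.25% of 8971) and lowered 104 (1.16%), and IFN-γ raised 577 (6.43%) and lowered 253 (2.82%). A gene was taken as opposed when both comparisons were called, at an adjusted p under 0.05, with different signs, and this held for 38 genes (0.424%). Both comparisons use the same 4 untreated wells, so that a chance deviation of those wells moves both estimates the same way, and the values of each comparison are given side by side as a description without a further test. Head to head, the 4 wells of Activin-A lay apart from the 4 of IFN-γ in 38 of 38 of these genes, which follows in part from the choice. In 28 of them Activin-A, untreated and IFN-γ wells formed 3 groups in order without overlap. The choice favors such an order too. Its share over all genes was not computed, and the count is a description. The changes were modest, with absolute log2FC from 0.16 to 1.07 with Activin-A and from 0.14 to 3.49 with IFN-γ, and 9 of the 38 reached 0.5 in both comparisons. The change was larger with IFN-γ in 23 of the 38. Just inside the threshold were Ank and Itgav (larger adjusted p = 0.0435) and Txnip (0.0495), and just outside it were Gpc1 and Iigp1 (0.0547) and Cx3cl1 (0.0552), a chemokine gene with a log2FC of -0.67 with Activin-A and 2.02 with IFN-γ.

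**Figure D2:**
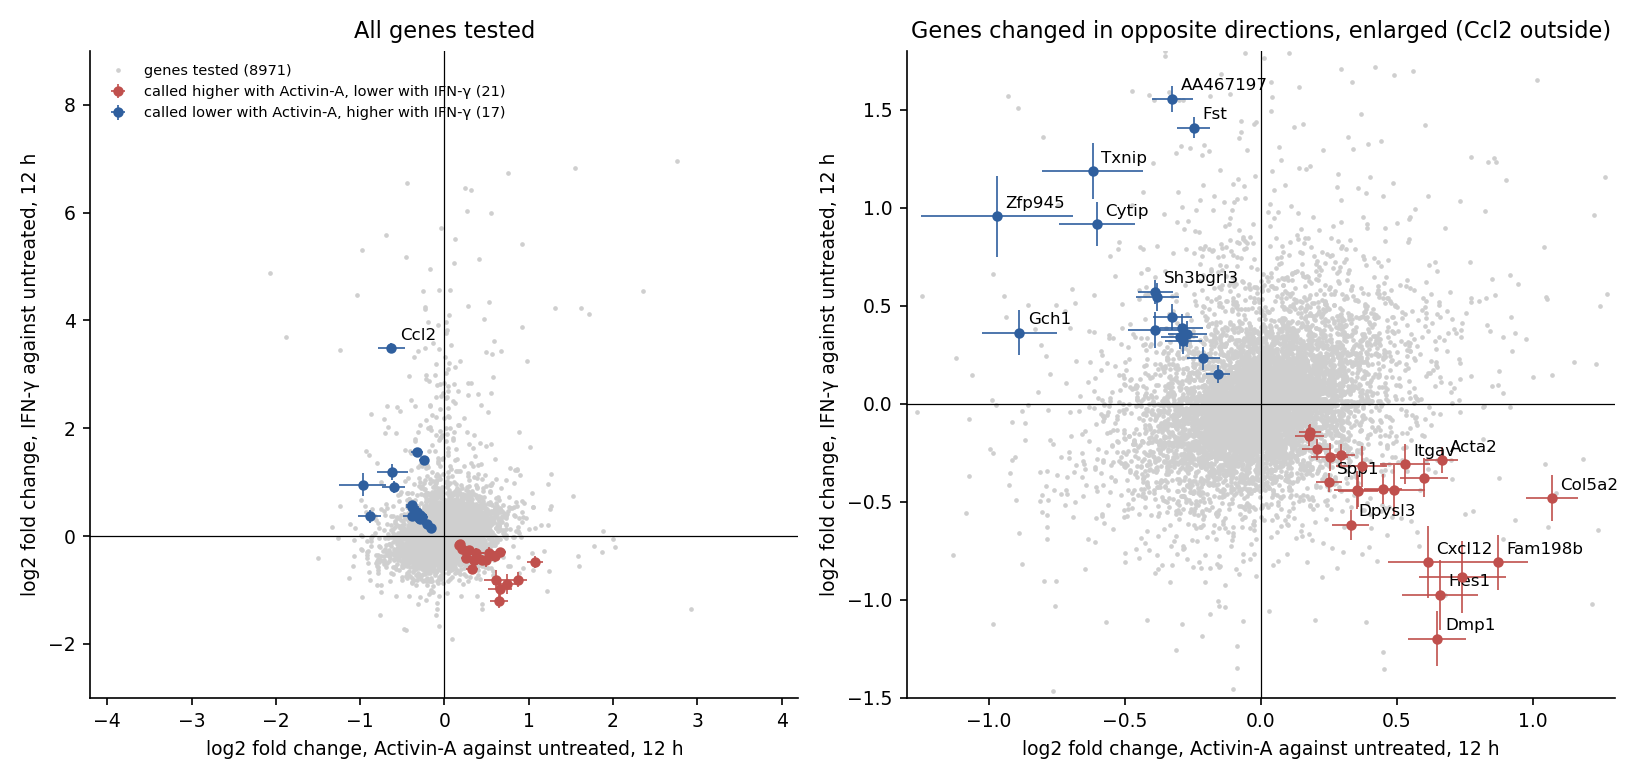
Log2 fold change from untreated cells at 12 hrs with Activin-A (horizontal axis) and with IFN-γ (vertical axis) for the 8971 genes tested (gray), with the 38 opposed genes in color and their standard errors as bars. The left panel shows the full range and the right panel an enlargement in which, of the opposed genes, Col5a2 lies farthest to the right and Dmp1 lowest, while Ccl2 is beyond its upper edge.

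Of the 38 genes, 21 rose with Activin-A and fell with IFN-γ and 17 fell with Activin-A and rose with IFN-γ. The former were Tmsb4x, Ank, Anxa5, Col4a1, Tpm1, Spp1, Spcs3, Serpinf1, Laptm5, Itgav, Col18a1, Sox4, Dpysl3, Acta2, Smoc2, Cxcl12, Col5a2, mt-Co1, Hes1, Fam198b and Dmp1, and the latter were Ccl2, Zfp945, AA467197, Txnip, Fst, Cytip, Gch1, Sh3bgrl3, Arl6ip5, Tpbg, Prr13, Tspan4, Slc14a1, Mt1, Arhgdib, Pttg1ip and Aldoa. The median head-to-head log2FC was 0.88 in the former and -0.93 in the latter.

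Sequences upstream of the start sites were looked up in RefSeq (GRCm38.p6) for 27 of the 38 genes, with 36 windows of 250 bases that end just before a start. Windows were searched on both strands for CAGACA, a box bound by Smads, for GAAA repeated after any 2 bases, a form of the interferon-stimulated response element, and for TTCNNNGAA, the gamma-activated site, and matches of the last of these may share bases with those of the second. The Smad box was found for 6 of 15 matched genes that rose with Activin-A (40.0%), for 1 of 12 that fell (8.33%) and for 19.3% of all 27025 genes in the table of promoters. The interferon-stimulated form was found for 1 of the 15 and 1 of the 12, against 3.46% of all genes, and the gamma-activated site for none of the 27 against 8.13%. A match describes letters only, and none shows binding. The sequences, 5′ to 3′ on the strand of the gene with matches in capitals, are windows of 4 genes that rose with Activin-A and hold the Smad box (TGTCTG on the other strand), that of Spp1 holding the interferon-stimulated form as well, and the window of Cytip, which fell with Activin-A and holds only the interferon-stimulated form. They lie at chr5:104202367-104202616, plus strand (Dmp1, second of its starts), chr19:34255374-34255623, minus strand (Acta2), chr13:28953700-28953949, minus strand (Sox4), chr5:104434861-104435110, plus strand (Spp1, first start) and chr2:58160123-58160372, minus strand (Cytip).
Dmp1: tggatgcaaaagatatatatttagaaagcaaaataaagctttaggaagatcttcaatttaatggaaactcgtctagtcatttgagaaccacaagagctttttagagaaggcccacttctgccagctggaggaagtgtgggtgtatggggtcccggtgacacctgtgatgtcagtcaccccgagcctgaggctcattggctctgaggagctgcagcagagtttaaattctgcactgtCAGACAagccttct
Acta2: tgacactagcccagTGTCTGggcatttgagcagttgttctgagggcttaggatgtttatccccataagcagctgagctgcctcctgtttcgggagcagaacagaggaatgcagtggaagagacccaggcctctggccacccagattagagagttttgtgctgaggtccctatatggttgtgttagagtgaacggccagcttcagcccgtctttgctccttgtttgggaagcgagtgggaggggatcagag
Sox4: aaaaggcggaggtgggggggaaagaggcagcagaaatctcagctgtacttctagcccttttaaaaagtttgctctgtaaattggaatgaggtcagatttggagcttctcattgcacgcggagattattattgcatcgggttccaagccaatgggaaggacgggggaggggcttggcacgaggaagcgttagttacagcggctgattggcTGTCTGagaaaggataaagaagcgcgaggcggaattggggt
Spp1: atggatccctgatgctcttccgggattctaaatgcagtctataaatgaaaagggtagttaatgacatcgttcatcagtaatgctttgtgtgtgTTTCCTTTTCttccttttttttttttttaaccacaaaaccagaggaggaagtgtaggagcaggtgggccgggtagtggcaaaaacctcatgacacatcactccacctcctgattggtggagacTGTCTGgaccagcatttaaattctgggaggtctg
Cytip: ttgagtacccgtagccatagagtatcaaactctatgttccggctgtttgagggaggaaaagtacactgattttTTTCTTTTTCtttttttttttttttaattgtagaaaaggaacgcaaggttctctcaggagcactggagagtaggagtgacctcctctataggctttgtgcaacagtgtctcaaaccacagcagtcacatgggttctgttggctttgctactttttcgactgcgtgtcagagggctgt

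Of the genes that rose with Activin-A and fell with IFN-γ, 3 belonged to the 22 tested of the list of collagens (Col5a2, Col18a1 and Col4a1) and 2 to the 21 of proteoglycans and matricellular proteins (Dmp1 and Spp1), against 0.424% of all genes, and they are described with Smoc2 and Serpinf1, which are in no list. Dmp1, an acidic phosphoprotein of mineralized matrix, was at 161, 141, 159 and 221 CPM with Activin-A, 90.3, 126, 111 and 103 CPM untreated and 52.2, 36.6, 50.9 and 47.6 CPM with IFN-γ. The 3 groups did not overlap, at a log2FC of 0.65 ± 0.11 with Activin-A and -1.20 ± 0.14 with IFN-γ, and the head-to-head log2FC of 1.85 was the highest of the opposed genes. Col5a2, a fibrillar collagen chain, was at 241, 219, 232 and 239 CPM with Activin-A, 103, 102, 129 and 112 CPM untreated and 71.7, 82.7, 58.5 and 98.5 CPM with IFN-γ. The groups were again in order, and the rise with Activin-A (log2FC 1.07 ± 0.10) exceeded the fall with IFN-γ (-0.48 ± 0.12). Col18a1, the chain that releases endostatin, was at 471, 379, 388 and 487 CPM, 317, 332, 295 and 315 CPM, and 225, 263, 215 and 231 CPM in the same order of groups, with changes of nearly equal size (log2FC 0.45 ± 0.07 and -0.43 ± 0.08). Smoc2, a secreted calcium-binding protein related to SPARC, was at 205 to 291 CPM with Activin-A, 148 to 178 CPM untreated and 122 to 125 CPM with IFN-γ, and Serpinf1, the anti-angiogenic PEDF, at 176 to 194 CPM, 134 to 155 CPM and 97.6 to 112 CPM. Spp1 (osteopontin), a ligand of integrins, was at 8340, 7460, 7930 and 9580 CPM with Activin-A, 7120, 7530, 6740 and 6600 CPM untreated and 5430, 5420, 5180 and 5180 CPM with IFN-γ. For Spp1 the Activin-A wells overlapped with the untreated ones in 1 well, replicate 2, whereas the IFN-γ wells lay below all others. The rise of Spp1 with Activin-A was not called by DESeq2's Wald test (adjusted p = 0.0543). Col4a1, of the basement membrane, completed the group at 339 to 369 CPM, 281 to 312 CPM and 233 to 264 CPM. The rise of Col4a1 with Activin-A was called in 14 of 19 alternative analyses.

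Of the contractile list 2 of 18 genes tested (Acta2 and Tpm1) and of the integrins 1 of 9 (Itgav, whose call was often lost) were opposed in the same direction, against 38 of all 8971, and Dpysl3, Tmsb4x and Anxa5, which are in neither list, are given with them. Acta2, smooth muscle α-actin, was at 719, 739, 687 and 675 CPM with Activin-A, 445, 408, 441 and 494 CPM untreated and 339, 384, 366 and 368 CPM with IFN-γ. Its wells were in order without overlap, at a log2FC of 0.66 ± 0.06 with Activin-A and -0.29 ± 0.07 with IFN-γ. Tpm1, a tropomyosin that stabilizes actin filaments, was at 1320 to 1450 CPM, 1070 to 1190 CPM and 911 to 1020 CPM in the same groups (log2FC 0.29 ± 0.05 and -0.26 ± 0.05). Itgav, the integrin αV chain that pairs with β1 and β5, was at 182, 219, 171 and 212 CPM with Activin-A, 142, 144, 129 and 121 CPM untreated and 131, 99.4, 106 and 103 CPM with IFN-γ. In Itgav the first IFN-γ well overlapped with the untreated wells, and the call of its fall was lost in 9 of 19 alternative analyses. Dpysl3, a regulator of cytoskeletal dynamics, was at 357 to 379 CPM, 275 to 316 CPM and 180 to 202 CPM, the fall with IFN-γ (log2FC -0.62 ± 0.08) being wider than the rise with Activin-A (0.33 ± 0.07). Tmsb4x, which sequesters actin monomers, and the phospholipid-binding annexin Anxa5 showed small changes at high levels, of 0.18 and 0.20 log2FC with Activin-A and -0.14 and -0.23 with IFN-γ, and Tmsb4x had 6420 to 6710 CPM, 5540 to 6070 CPM and 5090 to 5510 CPM.

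The transcription factor genes Hes1 and Sox4, the chemokine Cxcl12 and Fam198b had the same direction. Hes1, a repressor induced by Notch, was at 77.9, 70.9, 85.8 and 101 CPM with Activin-A, 53.7, 53, 58.4 and 43.5 CPM untreated and 25.5, 22, 22.8 and 34.2 CPM with IFN-γ. The groups did not overlap, at log2FC of 0.66 ± 0.14 and -0.97 ± 0.18. Sox4, a transcription factor of the SoxC group, was at 125, 126, 125 and 154 CPM, 98.8, 98.8, 82.6 and 91.7 CPM, and 70.4, 76.4, 55.3 and 72.6 CPM in the same order. The fall of Sox4 with IFN-γ was called in 16 of 19 alternative analyses, and not by DESeq2's Wald test (adjusted p = 0.0507). Cxcl12, the chemokine that attracts Cxcr4-bearing cells, was at 67.5, 63.1, 76.5 and 62.1 CPM with Activin-A, 47.5, 38.6, 43.0 and 47.0 CPM untreated and 21.9, 22, 21.7 and 32.5 CPM with IFN-γ. Cxcl12 was the 1 chemokine of 7 tested that was higher with Activin-A head to head, with log2FC of 0.61 ± 0.15 and -0.81 ± 0.18. Fam198b, a Golgi-associated protein gene also called Gask1b, was at 135 to 170 CPM, 77.0 to 105 CPM and 35.8 to 55.9 CPM, with log2FC of 0.87 ± 0.11 and -0.81 ± 0.14.

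The remaining 4 genes of this direction were Laptm5, of lysosomal membranes (284 to 358 CPM, 228 to 259 CPM and 160 to 196 CPM), the pyrophosphate exporter gene Ank (972 to 1060 CPM, 846 to 932 CPM and 757 to 847 CPM), Spcs3, a subunit of the signal peptidase (182 to 204 CPM, 136 to 173 CPM and 95.4 to 153 CPM), and mt-Co1. The mitochondrially encoded mt-Co1, a subunit of cytochrome c oxidase, was erratic. It was at 953, 737, 717 and 1150 CPM with Activin-A, 506, 320, 194 and 1150 CPM untreated and 384, 224, 302 and 252 CPM with IFN-γ. Its untreated wells overlapped with the wells of both factors, and by DESeq2's Wald test with Benjamini-Hochberg adjustment neither change from untreated was called (adjusted p = 0.876 and 0.362).

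**Figure D3:**
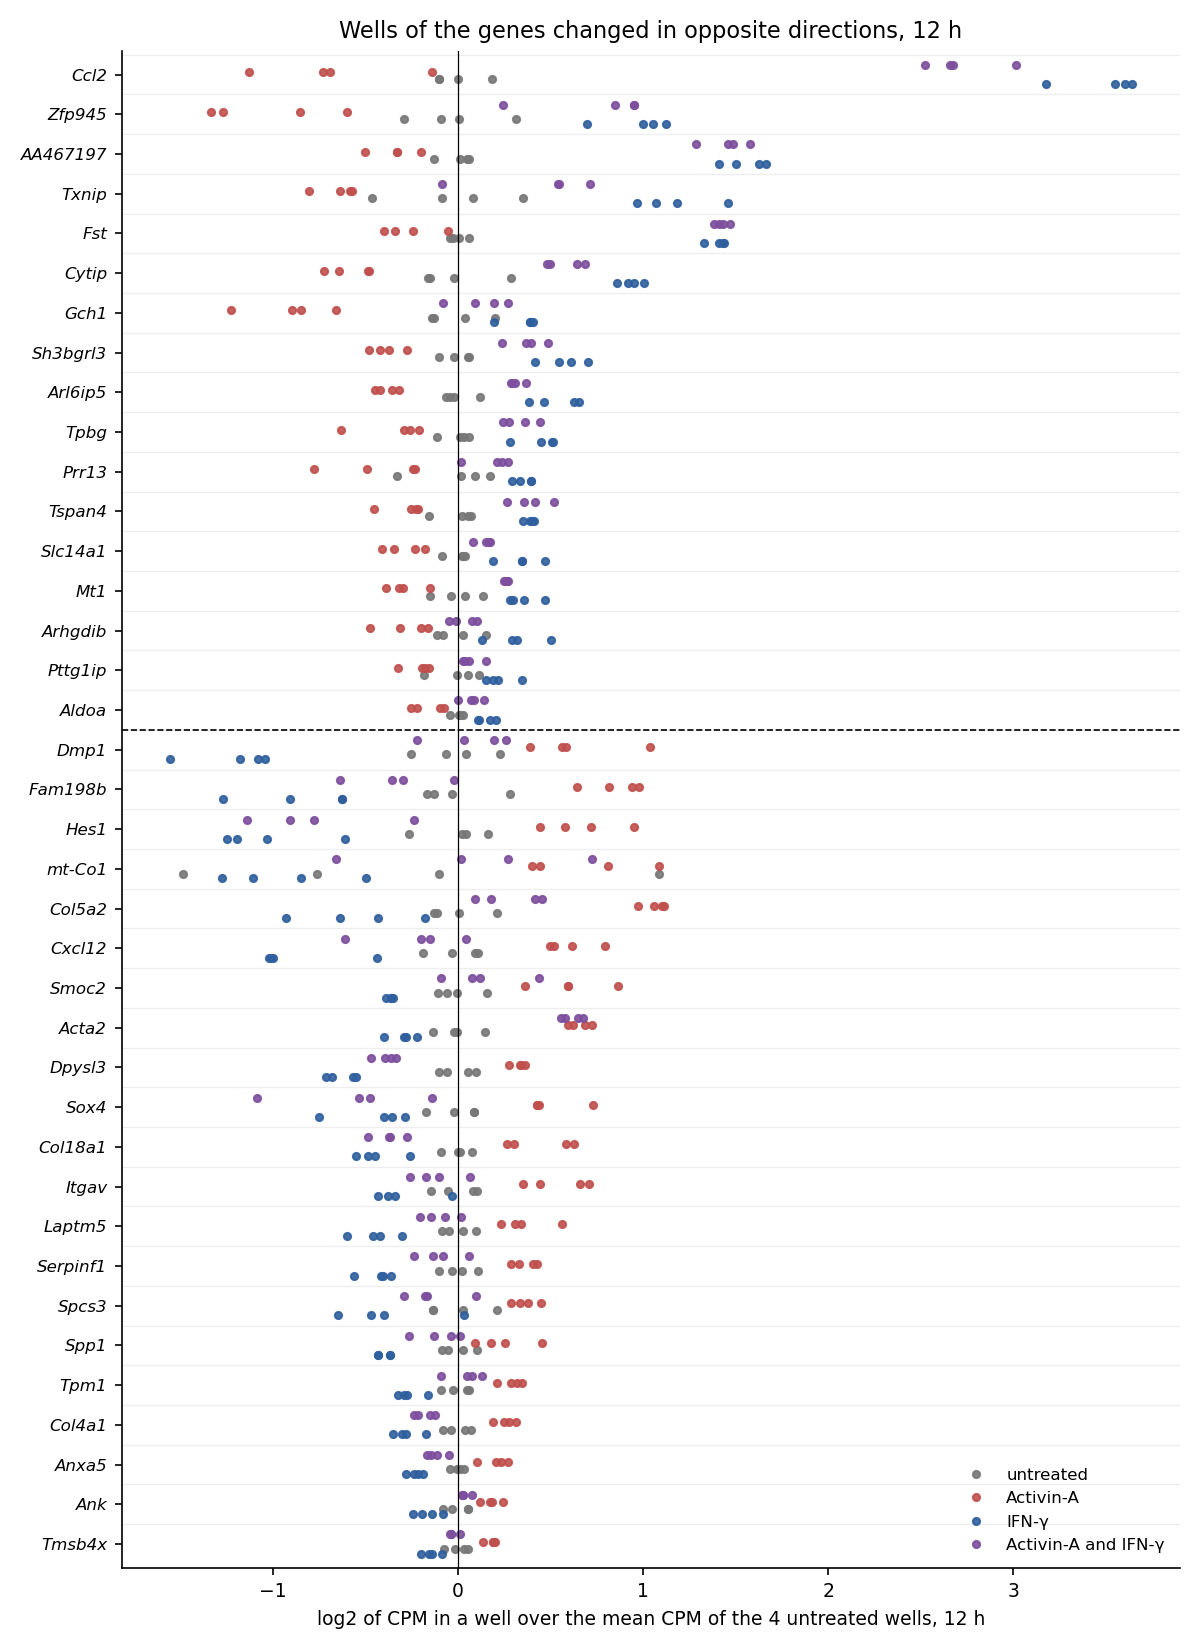
Each point is a well at 12 hrs, placed by the log2 of its CPM over the mean CPM of the 4 untreated wells, for the 38 opposed genes. Above the dashed line are the 17 genes lower with Activin-A (red) and higher with IFN-γ (blue) and below it the 21 genes of the other direction, with untreated wells in gray and wells given both factors in purple. For Fst and AA467197 the purple points lie among the blue ones, for Ccl2 they lie below them, for Acta2 they lie among the red ones, and the untreated wells of mt-Co1 are scattered.

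The genes of the other direction included the secreted antagonist Fst and the chemokine Ccl2. Fst was at 520, 593, 487 and 467 CPM with Activin-A, 605, 598, 619 and 643 CPM untreated and 1640, 1550, 1670 and 1660 CPM with IFN-γ. All Activin-A wells were below all untreated wells, replicate 2 only just, and all IFN-γ wells were far above them. The log2FC of Fst was -0.25 ± 0.06 with Activin-A and 1.41 ± 0.05 with IFN-γ, and leaving out replicate 4 of the Activin-A wells ended the call of the fall (adjusted p = 0.06). Ccl2, which attracts monocytes, was at 42.6, 43.7, 64.1 and 32.3 CPM with Activin-A, 80.2, 65.6, 70.5 and 65.8 CPM untreated and 879, 857, 638 and 827 CPM with IFN-γ. Here too the 3 groups did not overlap, at log2FC of -0.63 ± 0.16 and 3.49 ± 0.10, the latter the largest change of any opposed gene. The fall of Ccl2 with Activin-A was lost in 4 of 19 alternative analyses, namely by DESeq2 (adjusted p = 0.0837), without replicate 1 of the untreated wells (adjusted p = 0.0957) and without replicate 1 or 4 of the Activin-A wells, where the adjusted p was lower than without that untreated well.

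Another 7 genes of this direction had varied roles. Cytip, which binds the guanine nucleotide exchange factor cytohesin-1, was at 41.0, 48.6, 43.4 and 48.5 CPM with Activin-A, 66.9, 82.6, 60.6 and 61.1 CPM untreated and 136, 123, 131 and 128 CPM with IFN-γ, in order without overlap (log2FC -0.60 ± 0.14 and 0.92 ± 0.11). Gch1, the rate-limiting enzyme of tetrahydrobiopterin synthesis, was at 44.2, 45.7, 35.2 and 52.2 CPM, 74.7, 75.4, 94.7 and 84.6 CPM, and 108, 94.2, 109 and 108 CPM. Gch1 fell further with Activin-A (log2FC -0.89 ± 0.14) than it rose with IFN-γ (0.36 ± 0.12), while 13 of the 17 genes of this direction changed more with IFN-γ, and the rise of Gch1 was lost in 6 of 19 alternative analyses. Txnip, an inhibitor of thioredoxin, was at 24.8 to 29.1 CPM with Activin-A, 31.4 to 55.2 CPM untreated and 84.6 to 119 CPM with IFN-γ, but its fall was called in only 6 of 19 alternatives. AA467197, encoding a small mitochondrial protein, was at 217 to 268 CPM, 281 to 321 CPM and 817 to 974 CPM (log2FC -0.33 ± 0.08 and 1.55 ± 0.07), and the zinc finger gene Zfp945 at 7.45 to 12.4 CPM, 15.3 to 23.3 CPM and 30.4 to 40.8 CPM. Mt1, a metallothionein whose reads may be shared with Mt2, was at 255 to 301 CPM, 301 to 366 CPM and 406 to 462 CPM, and the glycolytic aldolase Aldoa at 2320 to 2620 CPM, 2680 to 2810 CPM and 2980 to 3180 CPM. The fall of Mt1 with Activin-A was called in 14 of 19 alternatives, and not by DESeq2's Wald test (adjusted p = 0.0518).

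The other 8 genes of this direction had log2FC of -0.39 to -0.21 with Activin-A and 0.23 to 0.57 with IFN-γ. They were Sh3bgrl3, a small thioredoxin-like protein gene (373 to 430 CPM with Activin-A, 485 to 542 CPM untreated and 695 to 846 CPM with IFN-γ), Arl6ip5, of the endoplasmic reticulum (186 to 203 CPM, 242 to 275 CPM and 331 to 398 CPM), the oncofetal surface antigen gene Tpbg (241 to 323 CPM, 346 to 389 CPM and 455 to 534 CPM), Prr13, the tetraspanin Tspan4, the urea transporter Slc14a1 (288 to 339 CPM, 361 to 393 CPM and 437 to 531 CPM), Arhgdib and Pttg1ip. Wells of the 3 groups were in order without overlap for 5 of these 8, an order that the choice favors. The fall of Prr13 with Activin-A was called in 14 of 19 alternative analyses, and not by DESeq2's Wald test (adjusted p = 0.0501).

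The levels of wells that received both factors for 12 hrs were not compared in choosing the opposed genes, although these wells shared in the filter, the scaling and the estimate of the spread, and the untreated wells they are set against were used. The mean of these wells lay between the means of the single factors in 35 of 38 genes. The choice set the single-factor means on either side of the untreated mean, which favors a mean between them. Shares over all genes were not computed for this count and those that follow, which are a description. Of the 17 genes that IFN-γ raised, the mean with both factors was above the untreated mean in 17, and all 4 wells were above all 4 untreated wells in 10. Of the 21 genes that Activin-A raised, the mean was above the untreated mean in 7, all wells were above the untreated ones in 1 and all were below in 4. The exception above was Acta2, at 701, 657, 668 and 714 CPM with both factors, a range that overlaps with that of Activin-A alone. Fst was at 1610, 1660, 1640 and 1710 CPM with both factors, overlapping with IFN-γ alone, and Ccl2 was at 406, 570, 446 and 451 CPM, below all wells of IFN-γ alone and above all untreated ones. Dmp1, at 123, 92.4, 110 and 129 CPM, overlapped with the untreated wells and with neither factor alone.

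The 4 hrs wells were separate wells and give values that the rule did not use. At 4 hrs, 774 of 9137 genes (8.47%) differed between Activin-A and IFN-γ, and 150 (1.64%) and 462 (5.06%) differed from untreated cells with Activin-A and IFN-γ. All 38 opposed genes were tested at 4 hrs, and 28 were called head to head in the direction of 12 hrs, namely 13 of the 21 that rose with Activin-A and 15 of the 17 that fell. Both signs against untreated cells were as at 12 hrs in 32 of the 38 (16 of 21 and 16 of 17). A kept sign needs no called change, and the share over all genes was not computed. Some kept signs rested on a log2FC near 0, such as Zfp945 with Activin-A (-0.0014) and Smoc2 with IFN-γ (-0.0058). Called changes from untreated in the direction of 12 hrs numbered 14 with Activin-A and 17 with IFN-γ. By the same rule 10 genes were opposed at 4 hrs, of which Ank, Fst, Mt1, Dmp1, Cytip and Hes1 were also opposed at 12 hrs, 15.8% of the 12 hrs list and 60.0% of the 4 hrs list. The other 4 were the growth factor genes Hbegf and Fgf10, the transcription factor gene Cebpb and the metallothionein Mt2.

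Hes1 and Fst had their full difference by 4 hrs. Hes1 was at 112, 85.6, 103 and 123 CPM with Activin-A, 72.7, 84.4, 75.5 and 70.0 CPM untreated and 35.8, 39.3, 44.2 and 35.4 CPM with IFN-γ, 3 groups in order without overlap, at a head-to-head log2FC of 1.49 ± 0.15 (adjusted p = 6.16e-12) against 1.63 at 12 hrs. Fst was at 483, 485, 462 and 381 CPM, 709, 602, 672 and 715 CPM, and 1650, 1650, 1700 and 1820 CPM in the same groups at 4 hrs, also without overlap (head-to-head log2FC -1.92 ± 0.07, adjusted p = 6.51e-32). Its fall with Activin-A was a log2FC of -0.58 at 4 hrs (adjusted p = 3.39e-08) and -0.25 at 12 hrs.

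Acta2, Dpysl3 and Slc14a1 had next to no head-to-head difference at 4 hrs. Acta2 was at 467, 479, 423 and 415 CPM with Activin-A and 410, 367, 448 and 426 CPM with IFN-γ at 4 hrs, with overlapping wells and a log2FC of 0.11 ± 0.07 (adjusted p = 0.431), against 0.95 at 12 hrs. Dpysl3 had 0.02 ± 0.08 (adjusted p = 0.932) against 0.95, and Slc14a1 0.03 ± 0.07 (adjusted p = 0.909) against -0.64. Ccl2 had a called difference already at 4 hrs, at 58.7, 58.1, 60.7 and 61.9 CPM against 341, 310, 299 and 317 CPM (log2FC -2.40 ± 0.10), which was wider at 12 hrs (-4.12). In a joint fit of both times, with 9332 genes tested, the head-to-head log2FC differed between 12 and 4 hrs in 70 (0.75%), and among the opposed genes in 11 of 38, of which 9 rose with Activin-A and 2 fell. Since the 12 hrs values chose these genes, a wider difference at 12 hrs is favored by the choice and that count is a description.

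**Figure D4:**
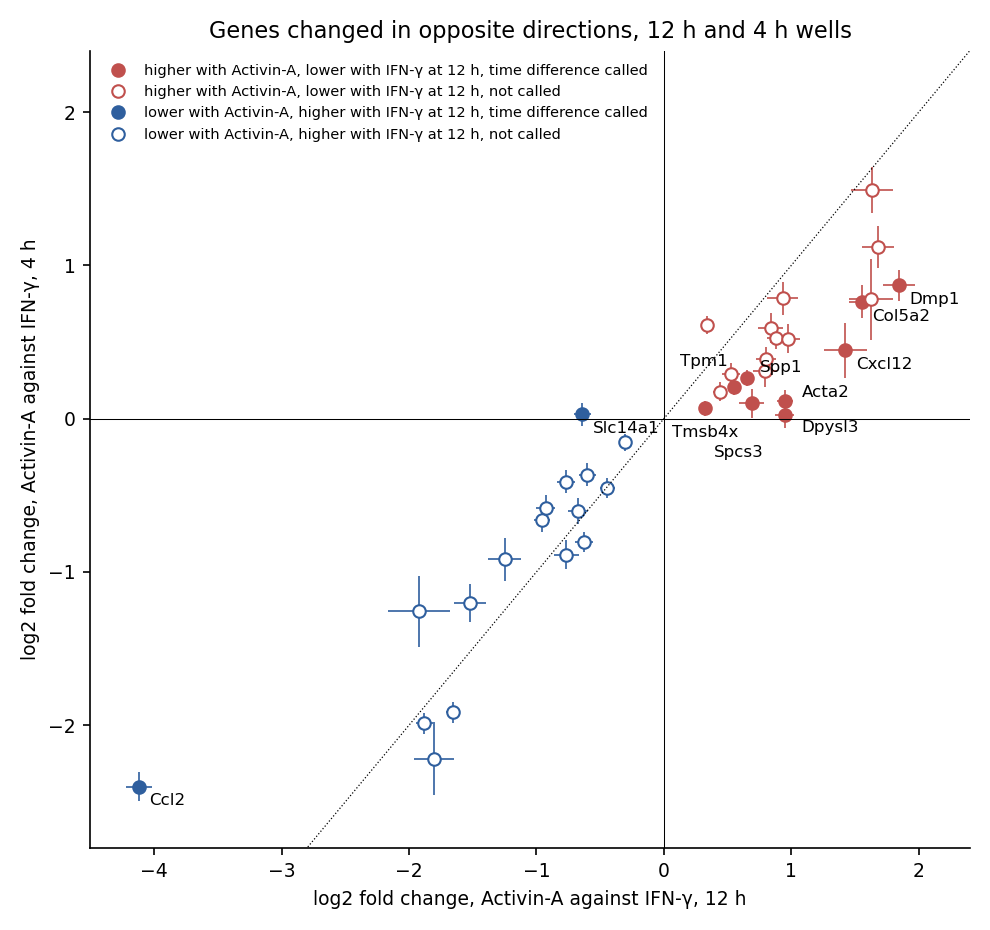
Head-to-head log2 fold change of Activin-A against IFN-γ for the 38 opposed genes at 12 hrs (horizontal axis) and 4 hrs (vertical axis), with standard errors as bars and a dotted line of equal values. Filled points mark the 11 genes whose difference between the times was called, and Acta2, Dpysl3 and Slc14a1 lie near 0 at 4 hrs.

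**Figure D5:**
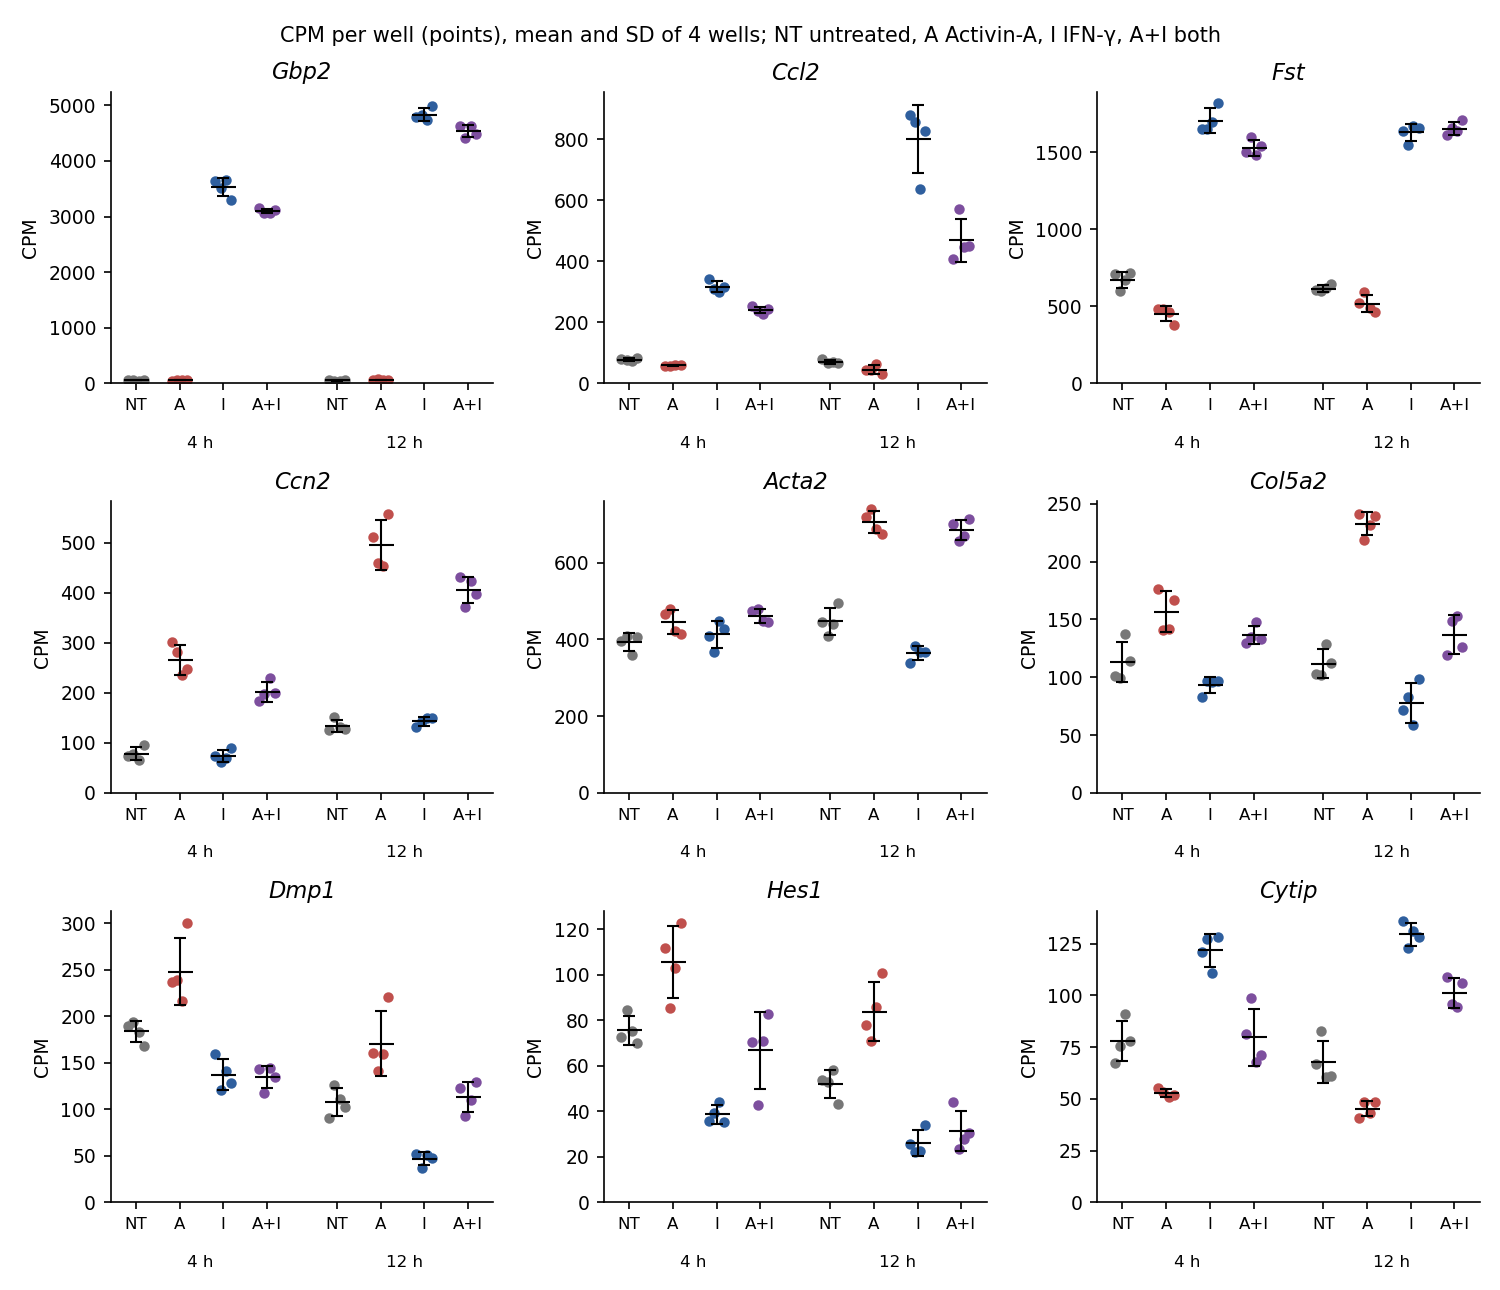
CPM in each well (points) with the mean and SD of 4 wells (bars) for 9 genes at 4 and 12 hrs in untreated cells (NT), Activin-A (A), IFN-γ (I) and both (A+I), each axis starting at 0. Gbp2 is high in wells with IFN-γ and Ccn2 in wells with Activin-A, while Fst, Ccl2 and Cytip are lower with Activin-A and higher with IFN-γ than untreated cells and Acta2, Col5a2, Dmp1 and Hes1 are the reverse at 12 hrs.

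Under all of 19 alternative analyses, which changed the test, the scaling, the filter, the block or the wells in the fit at an adjusted p under 0.05, 16 of the 38 genes remained called in both comparisons with untreated cells, 12 of the 21 that rose with Activin-A and 4 of the 17 that fell. They were Acta2, Col18a1, Col5a2, Cxcl12, Dmp1, Dpysl3, Fam198b, Hes1, Laptm5, Serpinf1, Smoc2 and Tpm1, and AA467197, Arl6ip5, Sh3bgrl3 and Tpbg. DESeq2 called 24 of the 38 opposed, and leaving out 1 well at a time gave 26 to 36 opposed genes. Without replicate 1 of the untreated wells, 9 genes rather than 17 were lower with Activin-A and higher with IFN-γ, and without replicate 3 or 4 of the untreated wells 11 were. Besides Txnip, Itgav and Gch1, the calls most often lost were those of Ank (called in 11 of 19 analyses for Activin-A and 13 for IFN-γ), Zfp945 (11 of 18 for Activin-A), Aldoa, Tspan4 and Pttg1ip (13 of 19 each for Activin-A) and Spcs3 (13 of 19 for IFN-γ).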

How the data were processed

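RNA of 32 wells of YUMM3.3 cells was measured by BRB-seq, 4 wells in each of 8 groups. The authors aligned reads to GRCm39 (mm39) with STAR 2.7.10b and made gene counts with featureCounts, per the submitters' processing notes, which also name DESeq2 1.36.0. The deposited table holds raw counts of 12451 genes with a count in at least 4 wells, 654539 to 1455074 per well. Use of molecular identifiers, the annotation release, strand and the treatment of shared reads are not given in the sources used here. Low totals limit the precision of genes under about 10 counts, and intervals cover counting error only. Symbols were found for 12437 genes in GENCODE M21, used for names only.

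The counts were tested with edgeR 4.0.16 in R 4.3.3 (filterByExpr, TMM, quasi-likelihood test, Benjamini-Hochberg adjustment, adjusted p under 0.05), with the 16 wells of a time in 1 fit so that all groups share an estimate of the spread. The difference between times used all groups of both times. Scripts were tested on simulated data. Alternatives were DESeq2 1.42.0, other size factors, filters, thresholds, samples in the fit, a replicate block and leaving out each well. Named genes were the 15 opposed genes of each direction with the largest smaller absolute log2FC, the 12 highest and 12 lowest head to head, the 4 largest called members of each list and all members of the receptor lists. Spp1 and Tpm1 were also named through lists, and the other opposed genes outside the 30 (Tmsb4x, Aldoa, Ank, Anxa5, Pttg1ip and Col4a1) are given to account for every member. Some genes that the rule names are not reported here. The members and lists were chosen with earlier results of these data known. Figures were drawn with matplotlib 3.10.9 in Python 3.11.15.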

Additional observations from a re-analysis of the deposited data

Results flagged for a closer look

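Among 120 sets of 4 wells checked for 60 named genes, 8 held a well far from the other 3 by Dixon's criterion at 95%, which chance gives in about 1 of 20 sets. With Activin-A at 12 hrs, Tspan4 was at 174 CPM in replicate 2 (200 to 205 in the others), Sox4 at 154 CPM in replicate 4 (125 to 126) and Gbp6 at 0.803 CPM in replicate 1, which is a single count, with 0 in the others. With IFN-γ at 12 hrs, Gch1 was at 94.2 CPM in replicate 2 (108 to 109), Cxcl12 at 32.5 CPM in replicate 4 (21.7 to 22), Il18bp at 214 CPM in replicate 4 (189 to 191), Tgtp1 at 54.2 CPM in replicate 3 (33.4 to 35.6) and Psmb9 at 396 CPM in replicate 1 (349 to 354).

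The head-to-head log2FC differed between 12 and 4 hrs in 13 of these genes by edgeR's quasi-likelihood test of the difference, for genes chosen in part by their 12 hrs values. Higher values at 12 hrs were found for Spp1 (by 0.38), Tmsb4x (0.25), Tpm1 (0.34), Acta2 (0.83), Dpysl3 (0.92), Spcs3 (0.59), Dmp1 (0.97), Col5a2 (0.78) and Cxcl12 (0.97). Lower values at 12 hrs were found for Slc14a1 (difference -0.67), Ccl2 (-1.72), Gbp3 (-1.1) and Psmb9 (-1.5). Adjusted p-values of these differences ran from 2.21e-12 (Ccl2) to 0.0282 (Tmsb4x, Cxcl12 and Psmb9).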

How the results depend on the processing

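No called 12 hrs log2FC of a named gene changed sign under the alternatives run, while the number of opposed genes with both signs kept at 4 hrs varied. Requiring an absolute log2FC of 0.5 left 698 head-to-head DEGs, 225 of them higher with Activin-A, 103 for Activin-A and 529 for IFN-γ against untreated cells, and 9 opposed genes (5 higher and 4 lower with Activin-A). An adjusted p under 0.01 left 265 DEGs higher with Activin-A and 24 opposed genes, 9 of them lower with Activin-A. DESeq2 called 140 genes for Activin-A against untreated and 24 opposed genes, again 9 of them lower with Activin-A, and a fit of all 32 wells gave 31 opposed genes. The cause was not tested. Leaving out 1 well at a time gave 967 to 1123 head-to-head DEGs (362 to 434 higher with Activin-A and 605 to 701 with IFN-γ), 170 to 221 for Activin-A and 689 to 846 for IFN-γ against untreated, 676 to 774 head to head at 4 hrs, 58 to 83 that differed between times, and 26 to 36 opposed genes (16 to 22 higher and 9 to 16 lower with Activin-A). Of the opposed genes, 30 to 33 had both signs and 27 to 32 were called head to head at 4 hrs. Deviations of same-numbered Activin-A and IFN-γ wells had a mean correlation of -0.0025 (0.0008 for other pairs). It was 0.016 for Activin-A and untreated wells (-0.0053 for other pairs) and -0.0005 for IFN-γ and untreated wells (0.0002 for other pairs). Replicate numbers thus showed little sign of pairing, and a replicate block gave 1110 head-to-head DEGs and 37 opposed genes, 36 of them shared. Of 153 genes named head to head, 11 lost their call under some alternative, and of the 38 opposed genes 18 lost the call for Activin-A and 10 that for IFN-γ. Of 78 results for the gene lists, 41 were counted as moved under at least 1 alternative, in 94 of 1638 values.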
